A study of Mus musculus with 5 samples.

Results

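The 45 genes described here encode the machinery that copies DNA and supplies its building blocks, from the loading of the helicase at origins to the packaging of the new strands. They were taken as a fixed list of gene symbols, and all 45 were found among the 25549 rows of the authors' deposited table, with 1 row per gene, and every row had a p-value. Their values were not used to choose them, although earlier results of these data were known when the list was made. For the description they were sorted by known function into 8 role groups.

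The cells sequenced were C57BL/6 mast cells obtained by culturing mouse bone marrow, whose progenitors mature into this cell type under interleukin-3. Control cells carried Cpa3-Cre, a Cre recombinase driven by the promoter of the mast cell carboxypeptidase A3 gene, which is also active in basophils (n = 2 samples). The other cells carried the same Cpa3-Cre together with miR-9∆fl/∆fl and are called the miR-9 line below (n = 3 samples). Both groups were untreated, were kept for 6 to 8 weeks with 50 ng/mL interleukin-3, and came from mice that the series' design text gives as matched for age and sex, without stating the age. No label says that replicates were independent mice or cultures. The p-values thus set the group difference only against the scatter among these particular samples, and that scatter may be technical.

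For each gene the authors' deposited table gives the log2 ratio of the miR-9 line to Cpa3-Cre, called the log2 fold change, with an unadjusted p-value, and positive values mean higher RNA in the miR-9 line. A gene is called when its Benjamini-Hochberg adjusted p, computed here over the 24071 rows with a p-value, is under 0.05. The values of single libraries and their depth, beyond the stated 70000000 reads per sample, were not analysed here, because the names of those columns match no sample's labels. The microRNA-class gene model Gm25641, which covers the Mir9-1 hairpin, had 4.50 as its log2 fold change (adjusted p = 8.74e-18) in the authors' deposited table. The labels do not say whether the recombined allele raises or removes miR-9. Over all rows with a p-value, the median log2 fold change was -0.09. Some sex-linked rows, chosen after their values were seen, are given beside the stated matching. Xist, expressed from the inactive X, stood at 1.58 (p = 0.000994, adjusted p = 0.101), and the Y-linked genes Usp9y (-1.002), Uty (-0.65), Kdm5d (-0.55), Ddx3y (-0.36) and Eif2s3y (-0.20) were all negative in the authors' deposited table, with Usp9y alone among them under an unadjusted p of 0.05 (p = 0.0399). Another Y-linked row, Srsy, was called lower at -2.15 (adjusted p = 0.0259) from the authors' deposited table. The part of sex in the replication values was not tested.

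A cell prepares its DNA for copying in G1 phase, when the origin recognition complex, Cdc6 and Cdt1 load a ring of the proteins Mcm2 to Mcm7 onto each origin. At the start of S phase, Cdc45 and the GINS complex join the ring to form the active CMG helicase, behind which polymerases alpha, epsilon and delta copy the strands. Many of these genes are transcribed in waves under E2F transcription factors, so their RNA is a common measure of how many cells in a culture are cycling. Cultured mast cells divide in interleukin-3, whereas mast cells in tissue divide rarely.

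Nearly every replication gene had a positive value, although few were called. Of the 45 members, 44 were positive in the authors' deposited table; their median was 0.81, with a range from -0.03 to 1.55, whereas 40.2 percent of all rows with a p-value were positive. All 45 stood above the median of all rows. Called genes numbered 3 higher, Asf1b, Mcm10 and Rrm1, and none lower, while 42 did not pass (Benjamini-Hochberg adjustment). That is 6.67 percent of the members called higher, beside 0.245 percent of all rows called higher and 0.166 percent called lower.

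At looser thresholds more members passed. An unadjusted p under 0.05 was reached by 32 members with positive values and by none with a negative value, where 3.87 percent of all rows were higher and 4.05 percent lower at that threshold. At an adjusted p under 0.10 the count was 7 higher, against 0.685 percent of all rows. At the threshold of 0.0001 on the unadjusted p, which the design text names, it was 1, Asf1b, against 0.158 percent of all rows. A log2 fold change of at least 1, a doubling, was listed for 14 members and for 1.39 percent of all rows. The members come from the same 5 libraries and are known to be transcribed together, so their counts are not independent pieces of evidence.

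**Figure D1:**
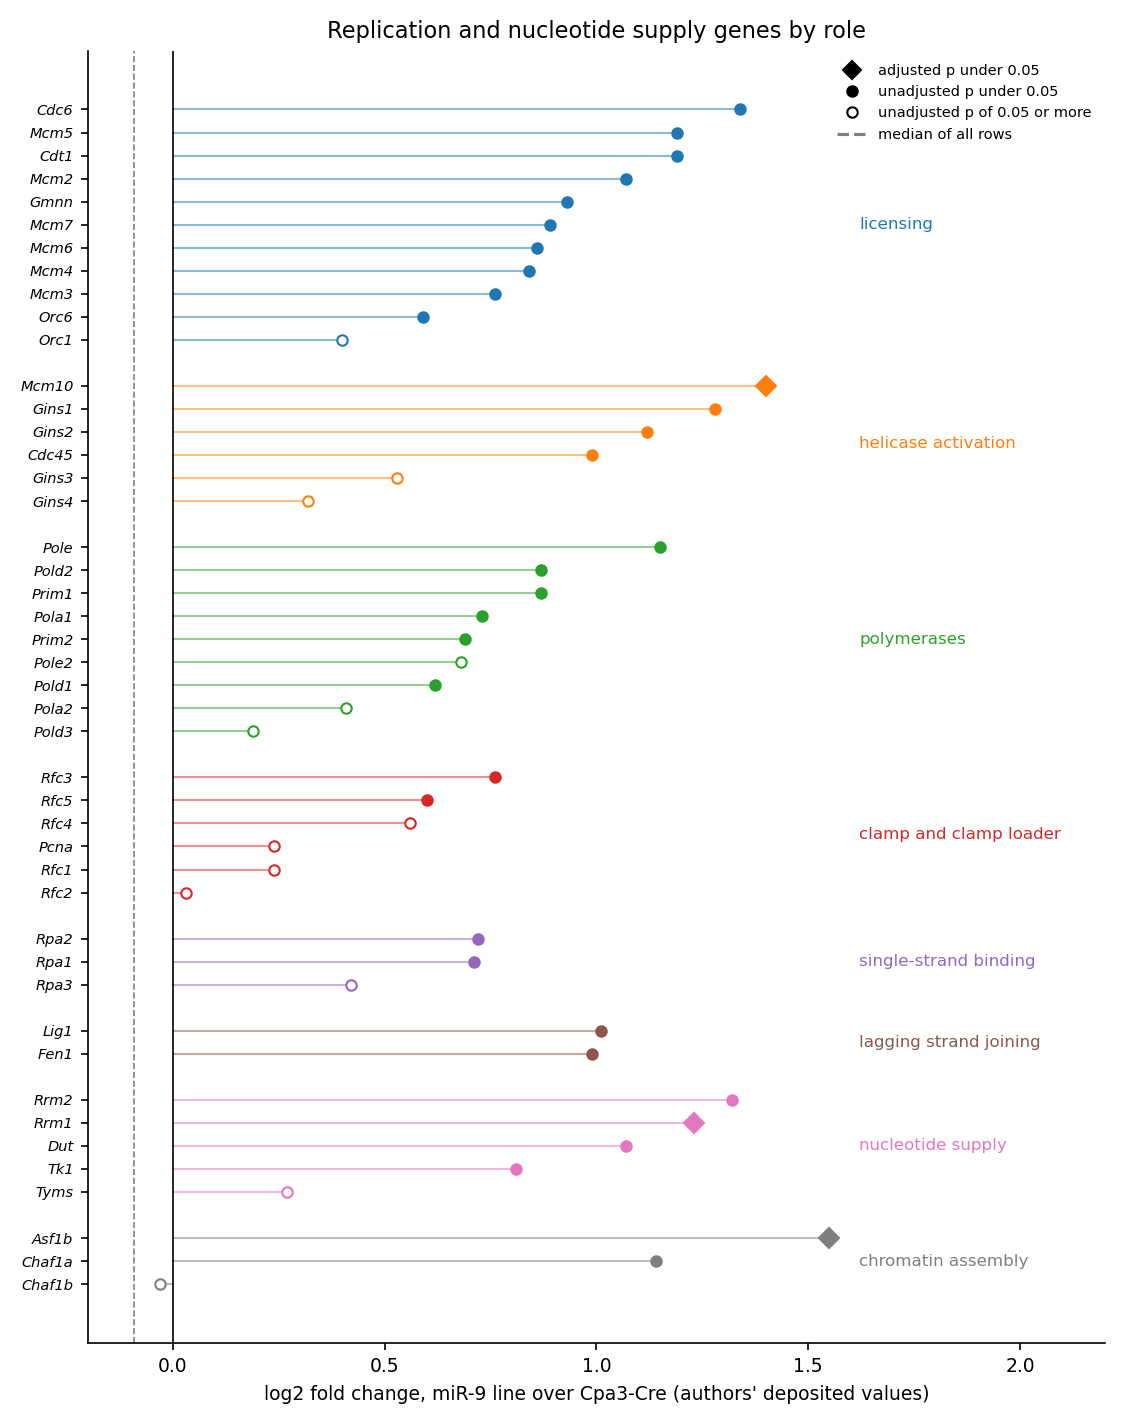
Each point is a replication gene, placed by its log2 fold change, miR-9 line over Cpa3-Cre, from the authors' deposited table and coloured by role, with no error bars because values per library were not analysed. Chaf1b at -0.03 is the 1 gene left of zero, Asf1b at 1.55 is the highest, and 13 open points mark an unadjusted p of 0.05 or more.

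Licensing genes, which mark origins for a single round of copying, were all on the positive side. In the authors' deposited table the 11 members ranged from 0.40 to 1.34 around a median of 0.89, though none was called. An unadjusted p under 0.05 was reached by 10 of the 11, beside 3.87 percent of all rows that were higher at that threshold. Cdc6, the ATPase that helps to load the helicase ring, stood highest at 1.34, or 2.53-fold, (p = 0.000716, adjusted p = 0.086) in the authors' deposited table. Cdt1, its loading partner, stood at 1.19 (p = 0.00164) in the authors' deposited table. Gmnn encodes geminin, which binds Cdt1 and blocks relicensing after S phase has begun, and it stood at 0.93 (p = 0.00155) in the authors' deposited table. The loader and its inhibitor thus both had positive values.

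The 6 genes of the helicase ring lay close together. They ranged from 0.76 for Mcm3 to 1.19 for Mcm5 in the authors' deposited table around a median of 0.87. All 6 had an unadjusted p under 0.05, beside 3.87 percent of all rows that were higher at that threshold. Mcm2 had the smallest p of the ring, at 1.07 or 2.10-fold (p = 0.000801, adjusted p = 0.0889) in the authors' deposited table. Mcm4 (0.84), Mcm6 (0.86) and Mcm7 (0.89) lay between them in the authors' deposited table. Mcm7 carries the microRNA gene Mir106b in an intron on its own strand, and that 82-base row stood at 0.54 (p = 0.263) in the authors' deposited table.

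The origin recognition complex, which sits at origins before the ring is loaded, looked different. Its 2 listed members had the lowest values of the licensing group, with Orc1, the subunit that comes and goes with the cell cycle, at 0.40 (p = 0.109) and Orc6 at 0.59 (p = 0.012) in the authors' deposited table. The other subunits were near or below zero in the authors' deposited table, with Orc2 at 0.04, Orc4 at -0.08, Orc3 at -0.10 and Orc5 at -0.28 (p = 0.191). Over all 6 subunits the median was -0.02 in the authors' deposited table, beside 0.87 for the ring. This difference between complexes was not tested, since it would need the values of each library.

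Helicase activation genes held the widest spread of any group that was positive throughout. Mcm10, which helps the loaded helicase to start unwinding, rose by 1.40 on the log2 scale, or 2.65-fold, (p = 0.000139, adjusted p = 0.0386) in the authors' deposited table. A larger log2 fold change was listed for 0.345 percent of rows. Gins1 (1.28, p = 0.000712, adjusted p = 0.086) and Gins2 (1.12, p = 0.00319) stood well above Gins3 (0.53, p = 0.0979) and Gins4 (0.32, p = 0.142) in the authors' deposited table, although the encoded proteins form a complex with 1 copy of each. Cdc45, the other CMG partner, stood at 0.99 (p = 0.0141) in the authors' deposited table. The median of the 6 genes was 1.06.

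**Figure D2:**
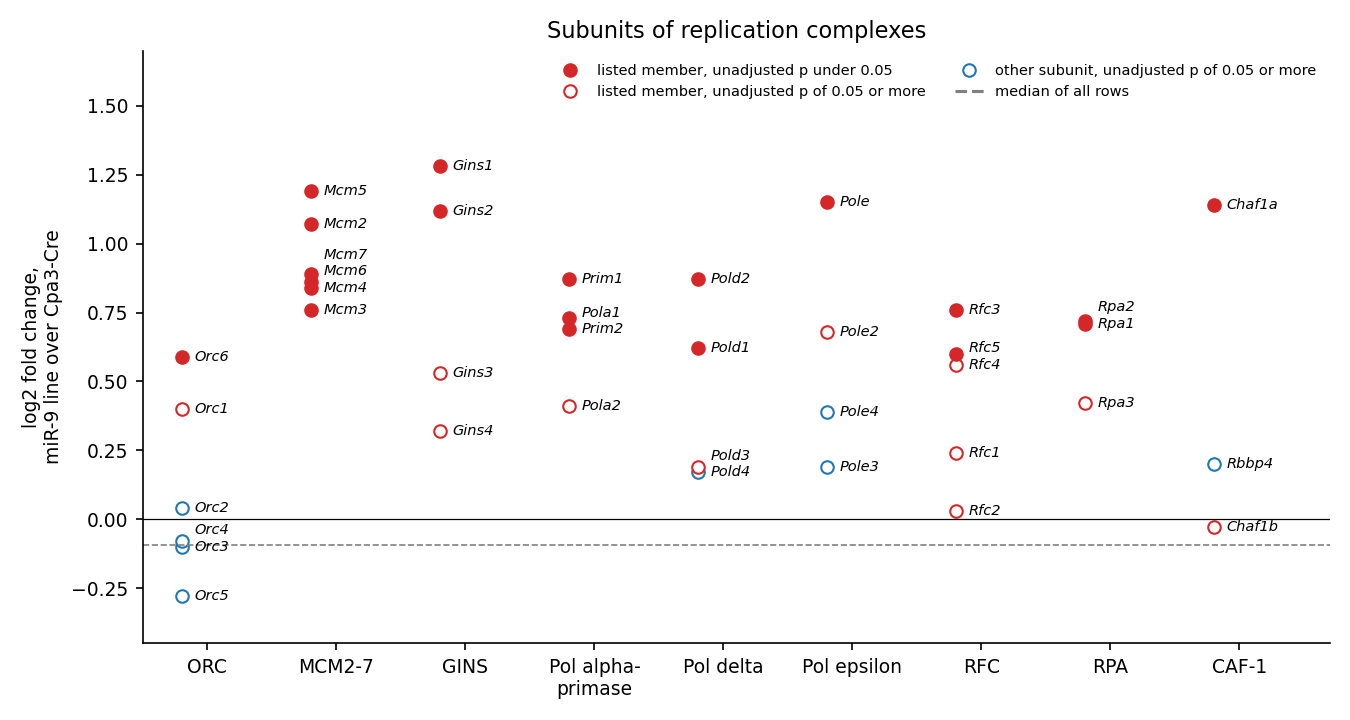
Log2 fold changes of the subunits of 9 replication complexes in the authors' deposited table, with listed members in red and other subunits in blue, and filled points for an unadjusted p under 0.05. The Mcm2 to Mcm7 points all lie between 0.76 and 1.19, while the origin recognition complex spans -0.28 to 0.59.

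The polymerase genes were positive in 9 of 9 cases in the authors' deposited table, and their median was 0.69. Of the 9, 6 had an unadjusted p under 0.05, beside 3.87 percent of all rows that were higher at that threshold. No polymerase gene was called. Pole, the catalytic subunit of the leading-strand polymerase epsilon, stood highest at 1.15 (p = 0.00361, adjusted p = 0.198) in the authors' deposited table. Its partner Pole2 stood at 0.68 (p = 0.0838) in the authors' deposited table, and the small histone-fold subunits Pole4 (0.39) and Pole3 (0.19), which are not among the 45, were lower still.

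Polymerase delta, which copies the lagging strand, showed a similar range. Pold2, which had the smallest p of the group, stood at 0.87 (p = 0.00242, adjusted p = 0.164) and the catalytic subunit gene Pold1 at 0.62 (p = 0.0387) in the authors' deposited table. Pold3 was the lowest polymerase member at 0.19 (p = 0.324), close to the unlisted Pold4 at 0.17, both from the authors' deposited table. For the polymerase alpha and primase complex, which lays down the primers, Prim1 (0.87), Pola1 (0.73) and Prim2 (0.69) had an unadjusted p under 0.05 in the authors' deposited table, and Pola2 (0.41, p = 0.0732) did not.

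The sliding clamp and its loader had the lowest group median, 0.40, in the authors' deposited table. Pcna, the ring that tethers polymerases to DNA and a textbook proliferation gene, stood at 0.24, or 1.18-fold, (p = 0.513, adjusted p = 0.926) in the authors' deposited table. A processed copy of it, Pcna-ps2, has a row of its own at 0.55 (p = 0.0659) in the authors' deposited table, and how reads that fit both were counted is not stated, so the Pcna value is uncertain to that extent. Rfc3 led the clamp loader at 0.76 (p = 0.00786, adjusted p = 0.307), followed by Rfc5 at 0.60 (p = 0.00842) and Rfc4 at 0.56 (p = 0.0663) in the authors' deposited table. Rfc1, the large subunit, stood at 0.24 (p = 0.195) and Rfc2 at 0.03 (p = 0.926) in the authors' deposited table. A p above the threshold does not show that these genes were unchanged.

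Replication protein A, which coats the exposed single strand, is a trimer whose genes were alike except for the smallest subunit. Rpa1 stood at 0.71 (p = 0.00237, adjusted p = 0.162), Rpa2 at 0.72 (p = 0.00427) and Rpa3 at 0.42 (p = 0.0556) in the authors' deposited table. On the lagging strand, the flap nuclease gene Fen1 stood at 0.99 (p = 0.00603, adjusted p = 0.266) and the ligase gene Lig1 at 1.01 (p = 0.00529, adjusted p = 0.247) in the authors' deposited table. These enzymes trim and seal successive fragments and had nearly equal values.

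Nucleotide supply genes were among the highest, with a median of 1.07 over 5 members in the authors' deposited table. Rrm1, the large subunit of ribonucleotide reductase, which makes deoxynucleotides from ribonucleotides, rose by 1.23 on the log2 scale, or 2.35-fold, (p = 0.000145, adjusted p = 0.0396) in the authors' deposited table. Rrm2, the small subunit made in S phase, had a larger value of 1.32 but a larger p (p = 0.00232, adjusted p = 0.159) in the authors' deposited table. Dut, the dUTPase that keeps uracil out of DNA, stood at 1.07 (p = 0.000629, adjusted p = 0.0846) and the salvage kinase gene Tk1 at 0.81 (p = 0.00945) in the authors' deposited table. Tyms, the thymidylate synthase gene, was the exception at 0.27 (p = 0.39, adjusted p = 0.899) in the authors' deposited table.

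Chromatin assembly genes held both ends of the whole range. Asf1b, a histone chaperone of dividing cells, rose by 1.55 on the log2 scale, or 2.93-fold, with the smallest p of the 45 members (p = 2.36e-05, adjusted p = 0.0142) in the authors' deposited table. A larger log2 fold change was listed for 0.133 percent of rows. Chaf1a, the large subunit of the CAF-1 complex that places histones behind the fork, stood at 1.14 (p = 0.00107, adjusted p = 0.107) in the authors' deposited table. Its partner Chaf1b stood at -0.03 (p = 0.932), and Rbbp4, the remaining subunit, at 0.20 (p = 0.29), both in the authors' deposited table.

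The called genes lie on different chromosomes (GRCm38 coordinates from the deposited rows). Asf1b spans chr8:83955507-83970197 on the plus strand with 4 exons. Mcm10 spans chr2:4989714-5012791 on the minus strand with 19 exons, and Rrm1 chr7:102441695-102469771 on the plus strand with 19 exons. None of them overlaps another row of the table. The 45 members are spread over 15 chromosomes and all are protein-coding in GENCODE M21.

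**Figure D3:**
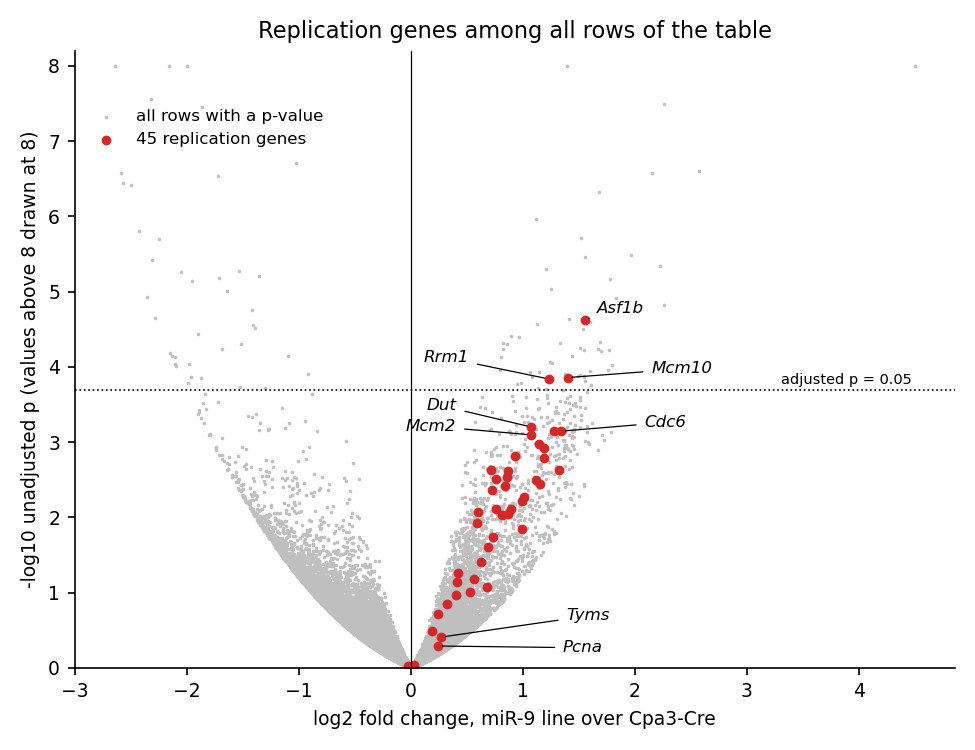
Each point is a row of the authors' deposited table, with its log2 fold change on the x axis and -log10 of its unadjusted p on the y axis, and replication genes in red. Asf1b, Mcm10 and Rrm1 lie above the dotted line of the adjusted threshold, and the red points stand on the positive side except Chaf1b at -0.03.

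Overlapping genes limit some values. Of the members, 13 overlap another row and 11 share exon bases with a row, in each case on the opposite strand. Libraries were strand-specific per the labels, but no source used here says if reads were counted by strand. If they were not, reads from the shared stretches could have been mixed or left uncounted. The longest shared stretches are 2758 bases of Gins2 with Gse1, which stood at -0.14 (p = 0.701) in the authors' deposited table, and 1909 bases of Fen1 with Gm10143, at 0.10 (p = 0.713). Chaf1a shares 620 bases with Ubxn6, at -0.28 (p = 0.169) in the authors' deposited table. Over the 32 members that overlap no row, the median was 0.76. For the clamp and clamp loader group it was 0.24 in place of 0.40 without the overlapping members.

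Other genes of the pathway, from lists that were not part of the 45, followed at a smaller distance. Positive values were listed for 69 of 80 in the authors' deposited table, and the median was 0.43. These 80 include the E2F factors and partners described below. Of the 80, 1 was called higher (1.25 percent, beside 0.245 percent of all rows), none lower, and 79 did not pass. At an unadjusted p under 0.05, 36 were higher (45 percent) and 1 lower, beside 3.87 and 4.05 percent of all rows. The called gene was Umps, whose enzyme completes the making of uridine monophosphate, at 0.97 (p = 4.03e-05, adjusted p = 0.0202) in the authors' deposited table. The 15 other origin and helicase factors had a median of 0.38 and ran from Orc5 at -0.28 to Ticrr, which recruits Cdc45 to the loaded ring, at 1.30 (p = 0.000774, adjusted p = 0.0886) in the authors' deposited table.

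The fork factors outside the 45 were positive or at zero in 16 of 16 cases, with a median of 0.44. They ran from Rnaseh2c at 0.00 to 1.37 for both Clspn, the checkpoint mediator claspin (p = 0.000702, adjusted p = 0.086), and Top2a, the topoisomerase that untangles sister chromatids (p = 0.000932), in the authors' deposited table. The median of 15 de novo purine and pyrimidine genes was 0.40, from Ctps2 at -0.14 to Umps, in the authors' deposited table. The 11 other chromatin assembly genes had a median of 0.47, from the Asf1b paralogue Asf1a at -0.14 to the remodeller gene Hells at 0.92 (p = 0.00798), in the authors' deposited table.

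The other deoxynucleotide genes had a median of 0.39 and held values of both signs. Of the 12 genes, 8 were positive and 4 negative in the authors' deposited table, with none called. At an unadjusted p under 0.05, 6 were higher and 1 lower, where 3.87 percent of all rows were higher and 4.05 percent lower. Samhd1, which breaks deoxynucleotides down, was lowest at -0.82 (p = 0.0292, adjusted p = 0.528) in the authors' deposited table.

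E2F transcription factors and their partners had a median of 0.58 over 11 genes with a p-value, and none was called. At an unadjusted p under 0.05, 6 were higher (54.5 percent, beside 3.87 percent of all rows). E2f8, an atypical E2F that represses, was highest at 0.97 (p = 0.0135) and E2f5 lowest at -0.41 (p = 0.113) in the authors' deposited table. The activator genes E2f1 (0.77, p = 0.0101) and E2f3 (0.79, p = 0.000787, adjusted p = 0.0886) were both positive in the authors' deposited table. The authors' deposited table lists E2f2 (0.61) and Rbl2 (-0.28) without a p-value.

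Mitosis genes, which act after replication in the cell cycle, had a higher median. Of 20 listed for comparison, 19 had a p-value, all 19 were positive with an unadjusted p under 0.05, and 3 were called, Cdk1, Cdc25c and Mad2l1. That is 15.8 percent called higher, beside 0.245 percent of all rows, and 3.87 percent of all rows were higher at the unadjusted threshold. The median of the 19 was 1.31 and their range 0.78 to 1.69 in the authors' deposited table, against 0.81 and -0.03 to 1.55 for the replication genes. The difference between these lists was not tested.

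**Figure D4:**
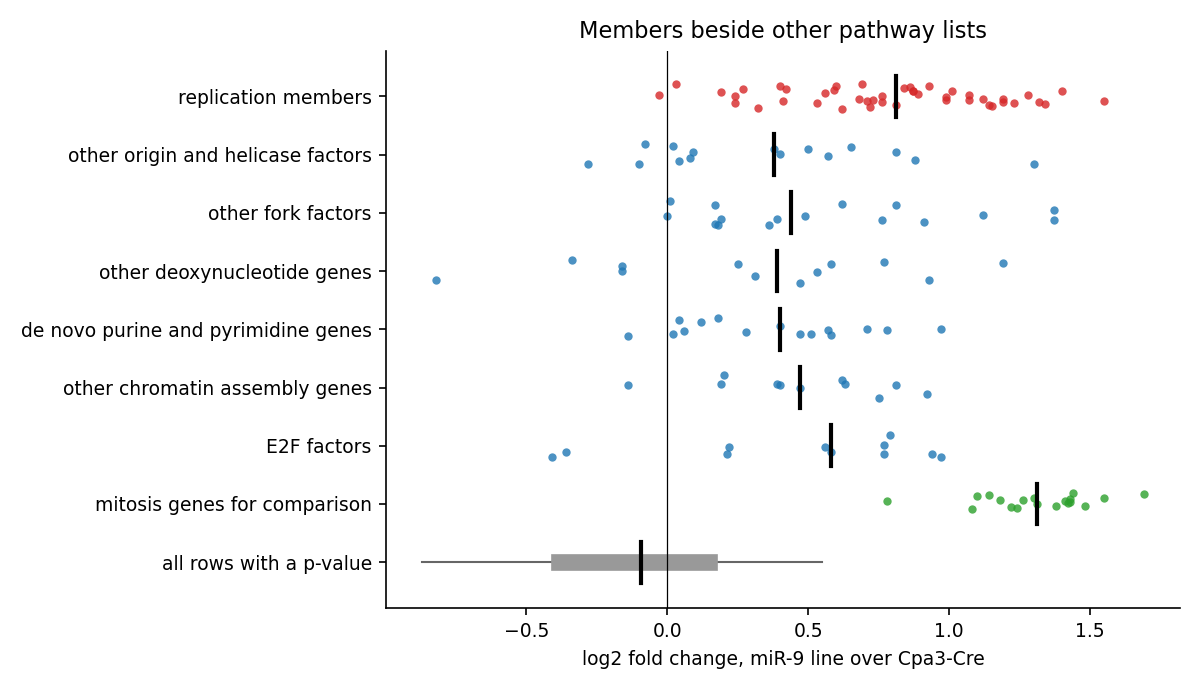
Points are genes for which the authors' deposited table holds a p-value, placed by log2 fold change, and black bars are list medians. For all rows the thick bar spans the middle 50 percent and the thin line the 5th to the 95th percentile. The replication members (median 0.81) lie between the other pathway lists (0.38 to 0.58) and the mitosis genes (1.31).

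In bulk RNA, a larger share of cycling cells and more RNA per cell cannot be told apart. Markers of other cell types mostly had negative values or no p-value. Among those with a p-value, 36.4 percent were positive, near the 40.2 percent of all rows. Of 47 marker rows found, 25 had no p-value, among them all 10 neutrophil and all 9 monocyte and macrophage markers found. In the authors' deposited table the other 22 stood around a median of -0.18. Of the 22, 1 was called, the progenitor gene Gfi1, which was lower, beside 0.166 percent of all rows called lower. Lymphocyte markers were negative in 6 of 6 cases. Erythroid markers were positive in 5 of 7 cases with a median of 0.80 and none called, led by Hbb-bs at 1.09 (p = 0.0405, adjusted p = 0.587) and Klf1 at 0.94 (p = 0.0769) in the authors' deposited table, while Alas2 stood at -0.03. Erythroid precursors also divide, and the part of such cells in the replication values was not tested. The 13 mast cell markers had a median of 0.10 in the authors' deposited table, and 10 of the 13 were positive. Fcer1a stood at 0.09 and Kit at -0.04 in the authors' deposited table. An unadjusted p under 0.05 was reached by 3 of the 13 (23.1 percent), all positive, beside 3.87 percent of all rows that were higher. Among the 3 markers the tryptase gene Tpsb2 was called at 1.60 (adjusted p = 0.0149), beside 0.245 percent of all rows called higher. The chymase gene Cma1 stood at 0.97 (p = 0.0176) and the monoamine oxidase gene Maob at 0.80 (p = 0.00718) in the authors' deposited table. Levels were not analysed here, so these values do not show how strongly either group expressed any marker.

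The members' promoters were also read for letters that E2F proteins bind. RefSeq windows (GRCm38.p6) from 250 bases before to 50 bases after the gene start were found for 37 of the 45 members, in 42 windows. The letters searched on both strands were TTTCCCGC, TTTGGCGC, TTTCGCGC and TTTGCCGC, which can overlap each other. They occurred in 14 of 37 members (37.8 percent) and in 511 of 13272 genes with a deposited p-value (3.85 percent). Over all genes with a promoter window of this length the share was 2.6 percent (704 of 27025), and among mitosis genes it was 6.25 percent (1 of 16). The letters G and C made up a median of 61.3 percent of the members' windows. That median was 58.3 percent for genes with a deposited p-value and 52.7 percent for all windows. The part of G and C content in the shares was not tested. A match of letters is a description, not a binding site.

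The matches gathered in certain roles. Licensing genes had them in 7 of 9 cases and polymerase genes in 4 of 7, while none of the 5 nucleotide supply genes or the 3 chromatin assembly genes had one. None of the 3 called genes held these exact letters in its window, and close variants of the letters were not searched. In the authors' deposited table the 14 members with the letters had a median of 0.76 and the 23 without had 0.81 (log2 fold change). The following sites show the letters in capitals with 10 bases on either side, read 5′ to 3′ along the gene's strand, for licensing genes with matches before the RefSeq start.
Mcm6, chr1:128359798-128359825, minus strand: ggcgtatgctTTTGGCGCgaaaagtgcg
Mcm6, chr1:128359735-128359762, minus strand: attggacgggTTTGGCGCgaagtagctc
Mcm5, chr8:75109346-75109373, plus strand: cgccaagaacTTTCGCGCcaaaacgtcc
Mcm7, chr5:138172031-138172058, minus strand: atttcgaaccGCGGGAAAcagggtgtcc
Orc1, chr4:108579417-108579444, plus strand: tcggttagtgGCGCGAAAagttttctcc
Cdc6, chr11:98908003-98908030, plus strand: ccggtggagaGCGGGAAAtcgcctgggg
In Mcm7, Orc1 and Cdc6 the capitals are the reverse complement of the letters searched. Counted from the RefSeq start as 0, the first capital lies at -110 and -47 in Mcm6, -153 in Mcm5, -165 in Mcm7, -27 in Orc1 and -138 in Cdc6. The Cdc6, Mcm7 and Orc1 sites lie inside the gene models of their deposited rows, which begin before the RefSeq start, while the Mcm5 and Mcm6 sites lie outside theirs.

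Mcm6 is shown at full length before its start because it holds the most matches, with 2 of its 3 overlapping in the first run of capitals. The window is chr1:128359706-128359955, minus strand.
Mcm6: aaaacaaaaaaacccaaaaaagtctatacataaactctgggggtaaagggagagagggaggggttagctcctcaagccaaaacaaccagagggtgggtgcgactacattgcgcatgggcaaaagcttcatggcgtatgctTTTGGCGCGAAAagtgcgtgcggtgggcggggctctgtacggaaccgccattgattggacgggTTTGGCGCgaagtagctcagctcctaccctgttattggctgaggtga

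A second element, the cell cycle homology region or CHR with the letters TTTGAA, is known from genes of G2 and mitosis and was searched after the values had been seen. It occurred in 6 of 37 members (16.2 percent), in 10 of 16 mitosis genes with a window (62.5 percent) and in 2124 of the 13272 genes (16 percent), so the members' share was near the background. Asf1b, the highest member, has it at -14 from its RefSeq start, Mcm2 at -70 and Gins3 at -28, among others. The Asf1b site lies inside the gene model of its deposited row, which begins further upstream, and the Mcm2 and Gins3 sites lie outside theirs. The sites of these 3 members are shown with the letters in capitals.
Asf1b, chr8:83955670-83955695, plus strand: gagccggctaTTTGAAgggagcgcgc
Mcm2, chr6:88898835-88898860, minus strand: ggctcagcctTTTGAAagctgtgggc
Gins3, chr8:95633521-95633546, plus strand: ggaaagcgagTTTGAAgccggcccta

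**Figure D5:**
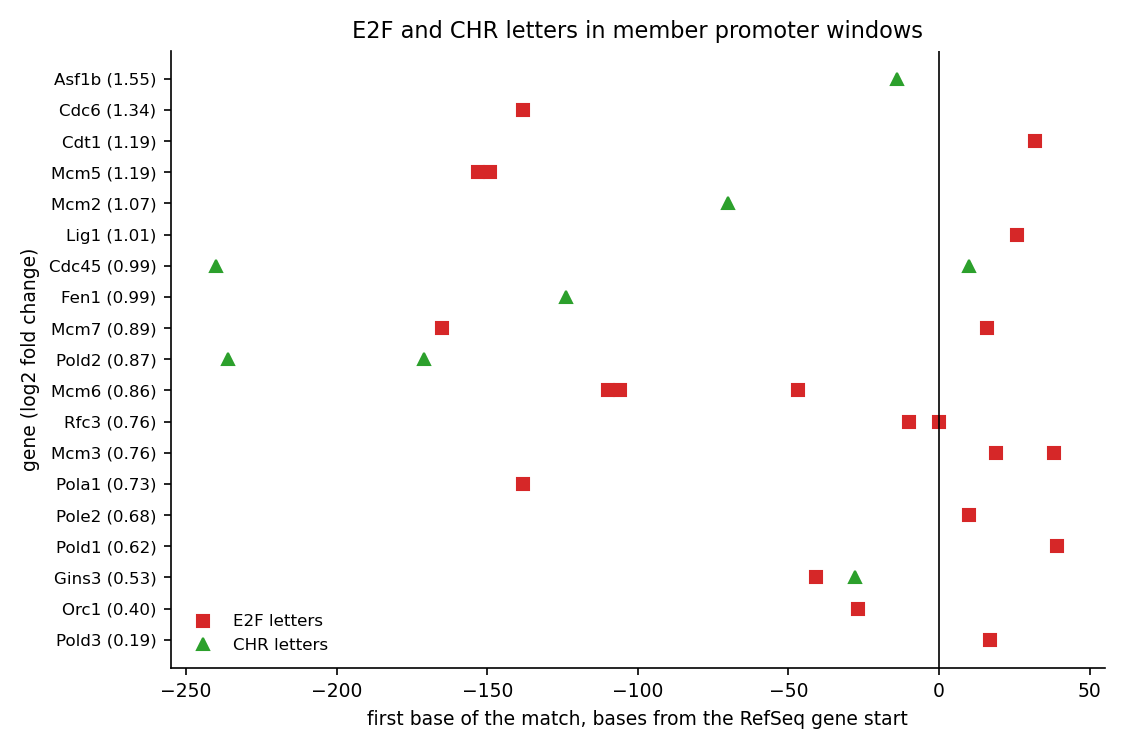
Positions of E2F letters (squares) and CHR letters (triangles) in the promoter windows of the members that hold any, by distance in bases from the RefSeq gene start. Genes are ordered by their values in the authors' deposited table (log2 fold change), from Asf1b (1.55) to Pold3 (0.19), and squares appear along the whole order.

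The allele concerns miR-9, so the members' transcripts were read for matches to its seed, bases 2 to 8, shown in capitals for both mature arms, which the 3 loci Mir9-1, Mir9-2 and Mir9-3 share.
mmu-miR-9-5p: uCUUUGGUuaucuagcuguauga
mmu-miR-9-3p: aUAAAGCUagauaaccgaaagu
In the longest GENCODE M21 3' UTR of each gene, 5 of 45 members (11.1 percent) held the 5p site ACCAAAG and 2 (4.44 percent) the 3p site AGCTTTA. Among 15428 genes with a deposited p-value the shares were 13.1 and 11.8 percent, and their UTRs were longer, with a median of 1063 bases against 526 for the members. The 5p sites lie in Chaf1a, Gins2, Prim1, Rfc2 and Rrm1, and the 3p sites in Orc1 and Rfc3.

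For 5 of these 7 members the site lies inside the gene model of the deposited row, and for Chaf1a and Rfc2 it lies beyond its end. The called gene Rrm1 and Prim1 are shown as examples of sites inside, with the seed match in capitals.
Rrm1, chr7:102468659-102468687, plus strand: acaaacagaaaACCAAAGccagctttgat
Prim1, chr10:128029927-128029955, plus strand: tggtttgtgagACCAAAGagggtgtcaag
In the authors' deposited table the 7 members with a match to either arm had a median of 0.87 (log2 fold change), from Rfc2 at 0.03 to Rrm1 at 1.23. The 38 without had a median of 0.79.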

How the data were processed

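The authors deposited 1 table for all gene models. The tools that the authors used, per the submitters' processing notes, include Cuffdiff, DESeq, DESeq2, HTSeq and STAR, and the builds are mm10 and GRCm38; these notes give neither roles nor versions. For the statistics the authors used DESeq2 and also a one-way ANOVA, per the labels' design text. Per the file headers, the authors deposited a log2 fold change, its linear form with a sign, as a fold, and an unadjusted p-value, which is empty in 1478 of 25549 rows. The model, filters and shrinkage of the folds are not stated in any source used here; if folds were shrunken, those of scarce genes are too small. The 5 columns of values per library match no sample's labels and were not used, so no test of expression, standard error or leave-one-out fit was made.

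P-values were adjusted over 24071 rows by the Benjamini-Hochberg method (statsmodels 0.14.6, Python 3.11.15, pandas 2.3.3, numpy 2.4.6), tested on simulated data. Rows were matched to GENCODE M21 using symbol plus position (23698), or only position at 80 percent reciprocal overlap (1476). Members and lists were chosen with earlier results of these data known. All members may be named; in other lists, called genes and the highest and lowest fold were named by rule. Some genes that this rule names are not reported here. Other genes named, the grouping by complexes and the CHR letters were chosen after their values were seen. Alternatives were protein-coding rows only, Benjamini-Yekutieli adjustment, other thresholds, centring, members without overlaps and a shorter promoter window of 150 bases.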

Additional observations from a re-analysis of the deposited data

How the results depend on the processing

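No paired analysis was possible because the result comes from the authors' fold changes and p-values, not from a fit to samples; for the same reason the planned count and pseudocount alternatives and the leaving out of samples were not run. Adjusting over protein-coding rows only left 3 replication genes called higher, with all 45 members on the same side of the threshold. With Benjamini-Yekutieli adjustment, 0 were called higher, with adjusted p-values of 0.151 for Asf1b, 0.412 for Mcm10 and 0.422 for Rrm1; by construction it multiplies all adjusted values by a common factor, up to a ceiling of 1. At an unadjusted p under 0.0001 the count was 1 and at an adjusted p under 0.10 it was 7. The count of other pathway genes called higher, 1 in the main analysis, was 0 with Benjamini-Yekutieli adjustment and 6 at an adjusted p under 0.10. No member or other pathway gene was called lower under any of these. Subtracting the median of all rows moved the median of the replication genes from 0.81 to 0.91 and that of the other pathway genes from 0.43 to 0.53, and without overlapping members it was 0.76. That subtraction adds the same amount to every value, so positive medians could not turn negative. The 7 role groups that have members without an overlap kept positive medians when only those members were used; the clamp and clamp loader moved from 0.40 to 0.24 and chromatin assembly from 1.14 to 0.76, since fewer members enter. Both lagging-strand genes overlap a row and gave no such value. The E2F letters were found in 11 members in place of 14 when only the 150 bases nearest to the start were read. The depth per library was not analysed.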

Other observations

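Several steps of this pathway are served by a pair of related genes. In some cases a form is used mainly by dividing cells and another is also active in resting cells or in mitochondria. The pairs below were chosen after their values were seen, and no difference within a pair was tested. Asf1b stood at 1.55 and its paralogue Asf1a at -0.14 (p = 0.548) in the authors' deposited table. Rrm2 stood at 1.32, whereas Rrm2b, the p53-inducible small subunit of ribonucleotide reductase that serves resting cells, stood at -0.34 (p = 0.0955) in the authors' deposited table. The cytosolic thymidine kinase gene Tk1 stood at 0.81 and the mitochondrial Tk2 at -0.16 (p = 0.442) in the authors' deposited table, and Dguok, the mitochondrial deoxyguanosine kinase gene, also at -0.16 (p = 0.426). Of the CTP synthetase genes, Ctps stood at 0.78 (p = 0.00768) and Ctps2 at -0.14 (p = 0.608) in the authors' deposited table. Other pairs did not show this order. The inosine monophosphate dehydrogenases ran the other way, since Impdh2 is the form linked to proliferation, with Impdh1 at 0.57 (p = 0.0104) and Impdh2 at 0.06 (p = 0.81) in the authors' deposited table. The cytosolic Shmt1 (0.58, p = 0.0349) and mitochondrial Shmt2 (0.53, p = 0.0409) had similar values in the authors' deposited table, as did the nucleoside diphosphate kinase genes Nme1 (0.47, p = 0.0271) and Nme2 (0.31, p = 0.131).

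Some members lay well below the members' median of 0.81. Pcna (0.24), Tyms (0.27), Rfc2 (0.03) and Chaf1b (-0.03) are commonly counted among genes of S phase, and each had an unadjusted p of 0.39 or more in the authors' deposited table. What sets them apart from Rrm1, Mcm10 and Asf1b was not tested.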
